A study of Mus musculus with 28 samples.

Results

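The step from the bud to the cap stage of the mouse first molar was measured by comparing the RNA of E14 molars with that of E13 molars. The members are the 14 libraries labeled as E13 or E14 among the 28 samples of the series, 7 single teeth of each stage, and no other choice was made. All were tooth germs dissected from wild type C57BL/6JOlaHsd mice, with no transgene or treatment. The labels give the ages of embryos as E13.5 and E14.5, and the names E13 and E14 of the study are used here. Each library holds the total RNA of 1 whole tooth germ, so epithelium, mesenchyme, and whatever tissue stayed on the tooth after dissection were read together. By the labels, the E13 teeth came from 7 embryos, and the E14 teeth from 6, because the left and the right tooth of embryo 6 were both sequenced. The column named for a left E13 tooth of embryo X has a name that matches no sample title. It was therefore used as an E13 tooth by its stage only and is not tied to a labeled sample. A single labeled E13 sample, also a left tooth, is left without a column.

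A tooth germ is made of a sheet of oral epithelium and the neural crest-derived mesenchyme under it. At the bud stage, the epithelium forms a knob around which the mesenchyme condenses. At the cap stage, the epithelium folds around the mesenchyme, and a small cluster of non-dividing epithelial cells, the primary enamel knot, secretes ligands of the Shh, Fgf, Wnt, and Bmp families. The enamel knot is the signaling center of the cap stage, and the growth and folding of the crown depend on it.

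The totals per library were 19187478 to 24109057 counts at E13 (median 22833213) and 23210069 to 25711785 at E14 (median 24478310). Levels are given in CPM, the count of a gene relative to the size of its library and set to a common total, with library sizes scaled by the TMM method, and a gene is called changed where the adjusted p of the edgeR quasi-likelihood test is below 0.05. The first principal component of the 14 teeth held 37.6% of the variance and separated the stages. The E14 libraries of the right tooth of embryo 3 and the left teeth of embryos 6 and 8 had 2.66% to 3.48% of counts on mitochondrial genes, against 1.15% to 1.93% in the E13 teeth and 1.53% to 1.93% in the other E14 teeth. These 3 libraries are called the high mitochondrial libraries below, and counts that depend on them are given with and without them. At E13, the left tooth of embryo 7 stood apart by muscle genes, and the left tooth of the embryo labeled X lay apart on the second component (13.9% of the variance). The sex of embryos is not labeled, and none of 6 sex-linked transcripts was called. Xist, the RNA of the inactive X chromosome, was above 1000 CPM in 2 E13 and 4 E14 teeth, and the part of sex in the results was not tested. A marker of epithelium and a marker of dental mesenchyme were present in every tooth. Epcam, a surface protein of epithelium, was at 36.1 CPM or more, and Msx1, a transcription factor of the dental mesenchyme, was at 317 CPM or more.

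Of 19101 genes tested, 2150 were higher at E14 (11.3%) and 1617 were lower (8.47%). With a change of at least 2-fold, the higher genes were 675 (3.53%) and the lower 254 (1.33%), so large changes went mostly upward. Without the high mitochondrial libraries, 1290 genes were called higher and 796 lower. Genes named by the rule given in the methods and defining genes of lists were followed singly in each alternative fit. Of those described below, Axin2, Bmp7, Cdh1, Cdkn1c, Cldn4, Hist1h4n, Igf2bp3, Mki67, and mt-Nd1 lost their call with these libraries left out. Ngfr, Pfkm, Prrx1, Snai1, Spry1, Ttn, Twist1, and Ube2c lost it as well. Dsp, Pkp3, Dsg2, and Nfatc1, called in the main fit, were not followed singly. The levels of all 7 E14 teeth were above all E13 teeth in 1214 genes (6.36%) and below them in 679 (3.55%). The median log2 fold change over all genes was -0.01, and 1870 of the called genes changed by less than 1.5-fold. These shares are the background against which the gene lists below are read. At an unadjusted p below 0.05 there were 6205 genes. Protein-coding genes made up 1989 of the higher and 1336 of the lower genes.

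**Figure D1:**
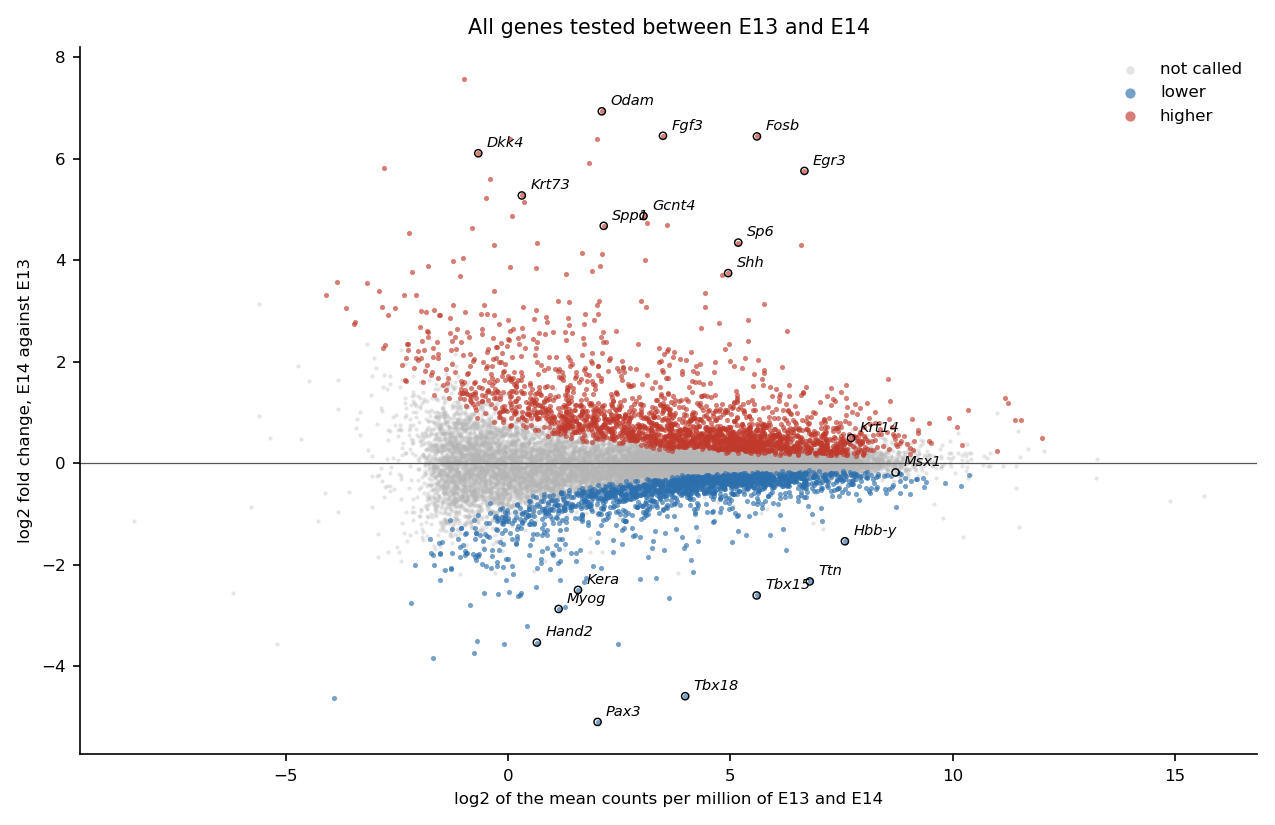
The log2 fold change of each gene tested (E14 against E13, positive values are higher at E14) is plotted against the log2 of its mean level in CPM over both stages, with genes called higher in red, lower in blue, and not called in gray. Circles mark named genes, and Odam and Fgf3 lie highest among them with 6.94 and 6.45, while Pax3 and Tbx18 lie lowest with -5.10 and -4.60. A single tested gene (1 of 19101) with no count in the 14 teeth is not drawn.

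Most ligands of the enamel knot were higher at E14. Of 15 ligands tested, 10 were called higher at E14 and 0 lower, 8 of them by at least 2-fold, and the median log2 fold change of the list was 1.39. All 10 kept their call without the high mitochondrial libraries except Bmp7. The summed level of the 15 was 161 to 192 CPM in the E13 teeth and 289 to 346 CPM in the E14 teeth, with no overlap. As these are whole teeth, fewer cells of a type and less RNA per cell cannot be told apart in this or any later list.

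Shh, the Hedgehog ligand of the knot (chromosome 5, 28456815 to 28467256, reverse strand, GRCm38), was at 0.967 to 8.98 CPM in the E13 teeth (median 4.01) and at 42.8 to 67.9 CPM in the E14 teeth (median 56.2). The change was 13.4-fold (log2 fold change 3.75 ± 0.33, SE, edgeR adjusted p = 1.34e-08). The stages were far apart, and the E13 teeth differed among themselves more, in ratio, than did the E14 teeth. The noncoding genes 9530036O11Rik and Gm26894 overlap Shh, and since the strand setting of the counting is not stated, the reads of overlapping genes cannot be told apart. The same limit holds for many genes named below. Among the signaling genes, Fgf20 overlaps Micu3, Gli1 overlaps Arhgap9, Notum overlaps Notumos, Dusp1 overlaps Ergic1, and Stra6 overlaps Ccdc33. Among the genes of tissues, the pairs are Lamb3 with Hsd11b1, Sox2 with Sox2ot, Pax9 with Slc25a21, Runx2 with Supt3, Nell2 with Tmem117, Ogn with Cenpp, Matn4 with Rbpjl, Bmp8a with Oxct2a, Csf1r with Hmgxb3, Tagln with Pcsk7, and S100b with Dip2a. The others are Ube2c with Tnnc2, Igf2bp3 with Malsu1, Pfkp with Pitrm1, Pfkm with Senp1, Ndufa4l2 with Shmt2, Hand2 with Hand2os1, Gldn with Gldnos, Ptprn with Gm28294, Galnt15 with Gm49084, and Gcnt4 with Gm48597. Further genes, such as Sp6, Itga6, Tbx18, Tbx15, and Unc5c, overlap gene models known by a code name alone.

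Of the Fgf ligands listed, 4 were called higher. Fgf3, which is made in the mesenchyme as well as in the knot, was at 0 to 1.12 CPM at E13 (median 0.17) and at 16.4 to 28.8 CPM at E14 (median 22.8), an 87.7-fold change (log2 6.45 ± 0.39 SE, edgeR adjusted p = 1.69e-11). Fgf4, which is known from the enamel knot alone in the tooth, rose from a median of 0.246 CPM (0.0483 to 1.97) to 7.70 CPM (4.80 to 11.7), or 17.5-fold (edgeR adjusted p = 1.94e-07). For both genes every E14 tooth was above every E13 tooth. The highest E13 value of Fgf3, Fgf4, and Fgf20 was each in the tooth of embryo X, at 1.12, 1.97, and 1.33 CPM. Fgf3, Fgf4, and Fgf15 are neighbors on chromosome 7, where Fgf3 begins at 144838083 and Fgf15 ends at 144900953 (GRCm38). Fgf15 rose from 0 to 0.691 CPM (median 0.255) to 2.03 to 3.72 CPM (median 2.72), 8.10-fold. Fgf20 rose 5.91-fold, with medians of 0.369 and 2.63 CPM, but the lowest E14 tooth (1.15 CPM) was below the highest E13 tooth.

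Of the Wnt ligands listed, Wnt10a, Wnt10b, and Wnt3 were called higher, and Wnt4 and Wnt6 were not called. Wnt10a was at 3.57 to 4.98 CPM at E13 (median 3.92) and at 14.1 to 21.7 CPM at E14 (median 16.4), a 4.0-fold change (log2 2.0 ± 0.19 SE, edgeR adjusted p = 3.79e-08). Wnt10b rose 2.61-fold, from 5.04 to 8.86 CPM (median 6.37) to 13.8 to 21.1 CPM (median 18.1). Wnt3 rose by a log2 of 0.89 ± 0.26 and Slit1, a secreted guidance protein used as a marker of enamel knots, by 1.62 ± 0.22. The values of the stages did not overlap in these 4 genes. Wnt4 was at 24.3 to 40.9 CPM at E13 and at 23.7 to 43.0 CPM at E14 (log2 -0.01 ± 0.14), and Wnt6 was at 9.89 to 18.9 CPM and 13.48 to 18.6 CPM (log2 0.12 ± 0.16), both with overlap.

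Of the Bmp ligands listed, only Bmp7 was called. It rose 1.46-fold (26.3 to 31.7 CPM at E13, 32.8 to 45.8 CPM at E14, edgeR adjusted p = 0.0113). Bmp4, the ligand of early mesenchyme and later of the knot, was at 54.4 to 62.6 CPM at E13 and at 68.3 to 88.5 CPM at E14. The stages of Bmp4 did not overlap, and yet the gene missed the threshold (log2 0.38 ± 0.16, edgeR adjusted p = 0.108), which it passed when only the E13 and E14 libraries were fitted. Bmp2 and Fgf9, ligands that the epithelium makes already at earlier stages, had log2 fold changes of -0.29 ± 0.18 and -0.18 ± 0.15 with overlapping values.

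The receptors, inhibitors, and nuclear factors of the knot were tested as a list of 10 genes, of which 8 were called higher and 1 lower, with a median log2 fold change of 1.26. The summed level of the list, most of it from Igfbp5, was at 1593 to 1958 CPM at E13 (median 1828) and at 1357 to 1892 CPM at E14 (median 1773), so it overlapped between stages. Igfbp5, a binding protein of insulin-like growth factors, was not called (log2 -0.30). Sp6, a zinc finger transcription factor of the enamel organ (chromosome 11, 97013394 to 97024734, forward strand), had the smallest p of the list. It was at 1.997 to 5.28 CPM at E13 (median 2.71) and at 55.4 to 83.7 CPM at E14 (median 65.9), or 20.4-fold higher (log2 4.35 ± 0.22 SE, edgeR adjusted p = 1.51e-12). Cdkn1a, the inhibitor of cyclin-dependent kinases that marks cells of the knot leaving the cell cycle, rose 4.26-fold, from 3.30 to 8.97 CPM (median 3.92) to 16.3 to 27.5 CPM (median 20.7). Dkk4, a secreted Wnt inhibitor, had 2 counts in all E13 teeth together and 212 in all E14 teeth, a ratio of 96.8 with an exact 95% interval of 26.5 to 805 that covers counting error only. Msx2 and Foxi3, both transcription factors, rose by a log2 of 1.60 ± 0.22 and 1.61 ± 0.22. Edar, the ectodysplasin receptor of the knot, rose by 0.92 ± 0.16, and Lef1, the nuclear partner of beta-catenin, by 0.57 ± 0.13.

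**Figure D2:**
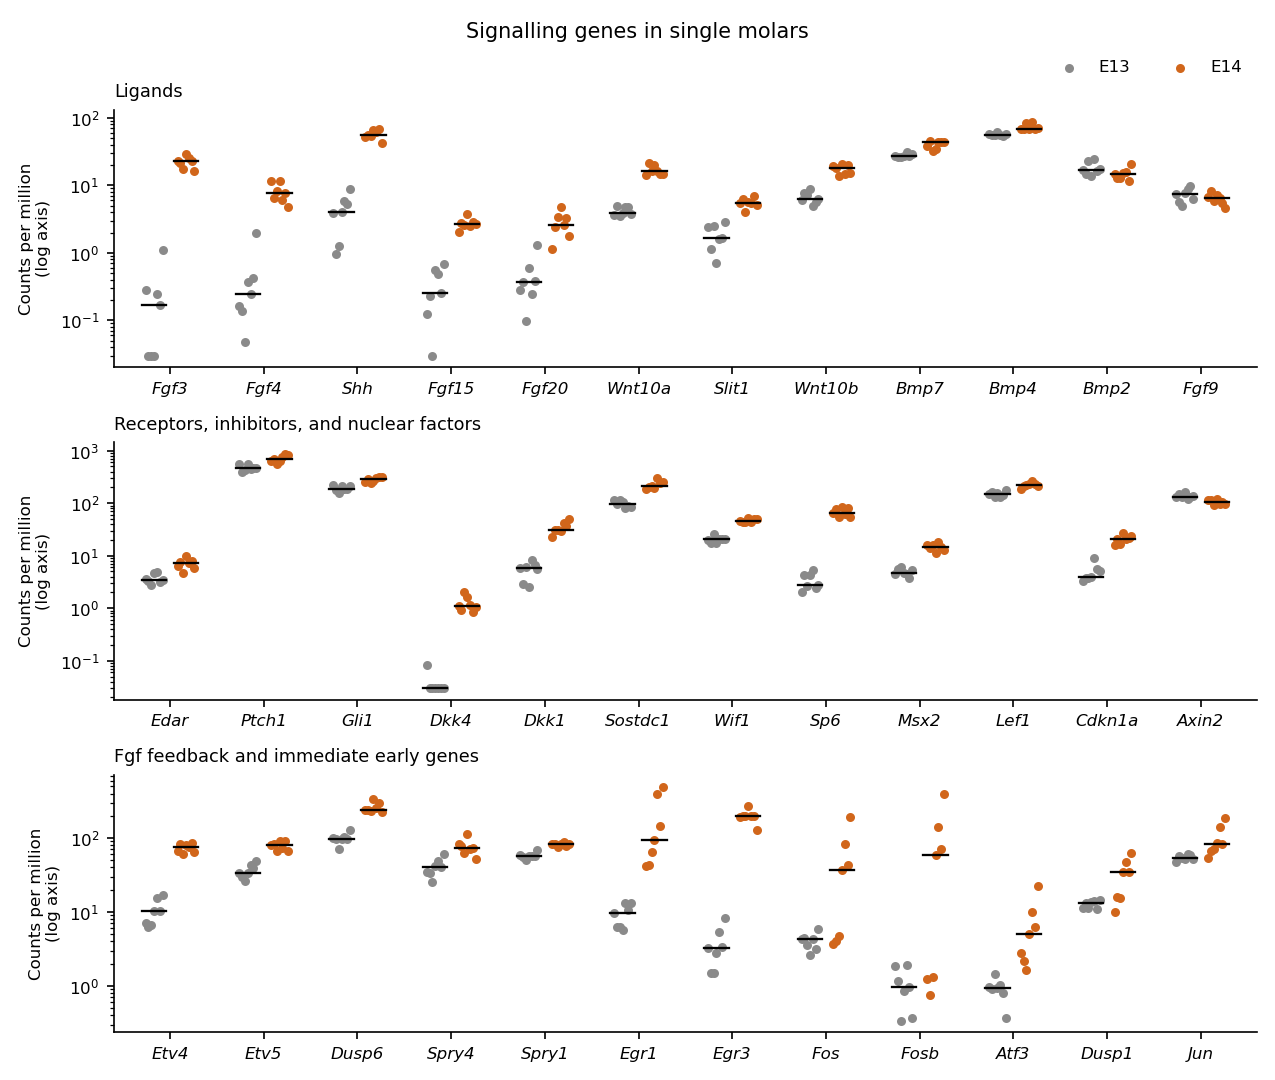
Each point is the level of a gene in 1 tooth, in CPM on a log axis, with E13 in gray, E14 in orange, and the median of each stage as a bar. Values of 0 are drawn at 0.03 CPM. For Shh, Fgf3, Fgf4, and Sp6 all orange points lie above all gray points, for Bmp2 and Fgf9 they mix, and for Fos, Fosb, and Egr1 the orange points are spread over the widest range.

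Genes of Wnt feedback moved in both directions. Of 19 feedback genes and secreted inhibitors, 11 were called higher and 2 lower, with a median log2 fold change of 0.38. Dkk1, a secreted inhibitor, rose 6.37-fold, from 2.56 to 8.11 CPM (median 5.95) to 22.6 to 50.5 CPM (median 30.4). Notum, an enzyme that removes the lipid of Wnt ligands, rose 6.10-fold (1.15 to 1.98 CPM, then 5.63 to 11.4 CPM, edgeR adjusted p = 8.73e-11), and Sp5, a transcription factor activated by Wnt signaling, rose by a log2 of 2.0 ± 0.28. The E14 teeth were above the E13 teeth in all 3 genes. Sostdc1, an inhibitor of Wnt and Bmp signaling, rose by 1.23 ± 0.22. In contrast, Lgr5, a receptor that raises Wnt signaling, fell 1.68-fold, from 94.7 to 151 CPM (median 112) to 52.1 to 83.1 CPM (median 69.5), with no overlap of the stages. Its relative Lgr6 rose by a log2 of 0.92 ± 0.13. Axin2, the feedback gene most used to report Wnt signaling, was lower at E14 (119 to 165 CPM, then 93.6 to 122 CPM, log2 -0.37 ± 0.11, edgeR adjusted p = 0.0234), and this call was lost without the high mitochondrial libraries and when the tooth of E13 embryo 2 or 5, of E14 embryo 3, or the left tooth of E14 embryo 6 was left out alone.

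As many genes of Wnt signaling moved, the 250 bases before the RefSeq transcription start were read for the letters CTTTGA or their reverse complement TCAAAG, the core that Lef and Tcf factors bind. Of the 27 genes called higher in the ligand list, the list of receptors, inhibitors, and nuclear factors, and the Wnt feedback list, 15 had an entry in the RefSeq promoter table (GRCm38.p6). The letters were found in 5 of the 15, and in 13.8% of all 32851 promoters of the table (10.8% of the 15365 of tested genes). The count of 5 is of genes with a match in any entry, while the percentages are of promoters, so the shares are not the same measure. Promoters of 3 of the 5 genes, Fgf3, Dkk1, and Sp5, are printed 5′ to 3′ along the strand of the gene, with matches in capitals. A match is a description of the letters only.
Fgf3 (chr7:144838362-144838611, forward strand): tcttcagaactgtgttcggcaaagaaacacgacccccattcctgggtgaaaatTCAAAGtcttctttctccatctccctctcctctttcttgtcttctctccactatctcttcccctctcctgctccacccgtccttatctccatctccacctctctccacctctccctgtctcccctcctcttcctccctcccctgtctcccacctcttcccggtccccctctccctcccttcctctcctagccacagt
Dkk1 (chr19:30549497-30549746, reverse strand): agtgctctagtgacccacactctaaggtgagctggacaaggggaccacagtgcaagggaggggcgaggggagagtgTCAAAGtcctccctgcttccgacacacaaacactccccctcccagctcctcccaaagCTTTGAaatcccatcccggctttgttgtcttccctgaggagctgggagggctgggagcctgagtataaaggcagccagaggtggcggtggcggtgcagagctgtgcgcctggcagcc
Sp5 (chr2:70474673-70474922, forward strand): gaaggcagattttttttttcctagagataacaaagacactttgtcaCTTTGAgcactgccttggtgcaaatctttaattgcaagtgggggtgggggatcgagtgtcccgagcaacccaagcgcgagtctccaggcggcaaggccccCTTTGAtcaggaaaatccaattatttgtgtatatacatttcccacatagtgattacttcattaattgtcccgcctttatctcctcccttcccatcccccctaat
The match of Fgf3 begins 197 bases before the RefSeq start, those of Dkk1 174 and 117 bases, and those of Sp5 204 and 104 bases. The gene start of Fgf3 given above, 144838083, is from GENCODE. The printed bases of Fgf3 lie after it, so they are inside the gene by that annotation.

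The responders of the other pathways of the knot rose in part. Of 10 Fgf feedback genes, 6 were called higher and 0 lower (median log2 0.69). Etv4, a transcription factor switched on by Fgf signaling, rose 7.06-fold, from 6.27 to 17 CPM (median 10.3) to 60.5 to 85.0 CPM (median 75.9, edgeR adjusted p = 1.01e-10). Dusp6, a phosphatase that dampens the same signal, rose 2.63-fold (70.2 to 127 CPM, then 223 to 335 CPM). The stages did not overlap in either gene. Etv5 rose by a log2 of 1.11 ± 0.19, Spry4 by 0.91 ± 0.19, and Spry1 by 0.50 ± 0.14, the last 2 being inhibitors of Fgf signaling.

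Of 9 Hedgehog responders, 4 were called higher and 1 lower (median log2 0.09). Ptch1, a receptor that Hedgehog signaling induces, rose by a log2 of 0.59 ± 0.11, Hhip, an inhibitor of the ligand, by 0.86 ± 0.16, and Gli1, the transcription factor of the pathway, by 0.55 ± 0.09. Gli1 was at 159 to 220 CPM at E13 and at 237 to 317 CPM at E14. Thus a 13.4-fold higher level of Shh went with changes of 1.46-fold in Gli1 and 1.51-fold in Ptch1 over the whole tooth. Gas1, a surface protein that binds Shh in the mesenchyme, fell 1.56-fold, from 177 to 206 CPM to 108 to 148 CPM, with no overlap.

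In the Bmp and activin list, 7 of 17 genes were called higher and 1 lower (median log2 0.21). Inhba, the activin subunit made by the dental mesenchyme, rose 2.16-fold (111 to 137 CPM, then 216 to 329 CPM, edgeR adjusted p = 8.10e-09). Its inhibitor Fst rose by a log2 of 0.67 ± 0.10, Bmp3 by 1.04 ± 0.16, and Bambi, a decoy receptor, by 0.58 ± 0.10, while Bmp5 fell by 1.13 ± 0.23 on the log2 scale. In the ectodysplasin pathway only Edar was called among 7 genes (14.3%, near the 11.3% of all genes called higher). Its ligand Eda was at 13.9 to 21.1 CPM at E13 and at 15.2 to 24.1 CPM at E14 (log2 0.10 ± 0.12, edgeR adjusted p = 0.634). With only the E13 and E14 libraries fitted, 3 of the 7 were called higher.

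Of 16 Notch genes, 6 were called higher and 0 lower (median log2 0.37). Hey2, a target of the pathway, rose 3.51-fold (1.31 to 2.93 CPM, then 6.23 to 9.69 CPM, edgeR adjusted p = 4.49e-08), Lfng, an enzyme that modifies the receptor, by a log2 of 1.32 ± 0.16, and Notch1, a receptor, by 0.70 ± 0.12. Among 17 genes of retinoic acid, 4 were called higher and 1 lower (median log2 -0.04). Of the enzymes that break it down 2 rose, Cyp26c1 by 8.66-fold (0.138 to 1.97 CPM, then 5.24 to 8.30 CPM) and Cyp26a1 by 3.11-fold (1.21 to 4.30 CPM, then 5.77 to 10.7 CPM). Aldh1a3, which makes it, rose by a log2 of 0.72 ± 0.16, and Stra6, which brings retinol into cells, fell by 0.85 ± 0.23 on the log2 scale, a call lost without the E13 teeth of embryos 7 and X.

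Immediate early genes, which cells switch on within minutes of a stimulus or of stress, were higher in E14 teeth. Of 16 genes in a list that includes the heat shock genes Hspa1a and Hspa1b, 15 were called higher and 0 lower, 11 of them by at least 2-fold, with a median log2 fold change of 1.69. The gene not called was Hspa1a (log2 0.56). The summed level was 137 to 163 CPM in the E13 teeth and 424 to 1745 CPM in the E14 teeth. The increase took 2 forms. Egr3 (chromosome 14, 70077203 to 70082614, forward strand) was at 1.47 to 8.18 CPM at E13 (median 3.30) and at 127 to 274 CPM at E14 (median 199), high in every E14 tooth, a 54.2-fold change (log2 5.76 ± 0.29 SE, edgeR adjusted p = 1.51e-12). Egr2 was likewise higher in all E14 teeth, at 13.1 to 20.3 CPM against 0.466 to 2.18 CPM.

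Fos and Fosb were high only in part of the E14 teeth. Fos was at 2.61 to 5.84 CPM in the E13 teeth, at 3.66, 4.01, and 4.77 CPM in the E14 teeth of embryos 1, 2, and 3, and at 36.4, 83.96, 43.2, and 191 CPM in those of embryos 5, 6 (left and right), and 8. Fosb was at 0.338 to 1.92 CPM at E13, at 1.23, 0.763, and 1.33 CPM in the former E14 teeth, and at 59.3, 141, 72.1, and 395 CPM in the latter. The E14 teeth of embryos 1, 2, and 3 were thus within the range of E13 for both genes. Dusp1, a phosphatase induced with Fos, split the E14 teeth in the same way, with 10.05 to 15.9 CPM in the former and 34.3 to 63.2 CPM in the latter. Egr1 was above the E13 teeth in every E14 tooth, but ranged from 41.7 CPM to 496 CPM. The time between death of the embryo and lysis of the tooth is not labeled, and its part in these values was not tested. Of the 4 teeth with high Fos, the left teeth of embryos 6 and 8 were high mitochondrial libraries and the other 2 were not, and the E14 tooth of embryo 3, a high mitochondrial library, had low Fos.

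Most genes of epithelial adhesion were higher at E14. In the list of adhesion and polarity genes, 23 of 27 were called higher and 1 lower, against 11.3% and 8.47% of all genes, with a median log2 fold change of 0.62. Without the high mitochondrial libraries 19 were called higher. Its sum was 1066 to 1480 CPM at E13 and 1966 to 2449 CPM at E14. Epcam, a surface protein of all epithelial cells, was at 36.1 to 51.9 CPM at E13 (median 41.8) and at 60.8 to 72.9 CPM at E14 (median 62.1, log2 0.60 ± 0.09 SE, edgeR adjusted p = 2.04e-05). Cdh1, the epithelial cadherin, rose similarly (49.8 to 79.8 CPM, then 81.7 to 125 CPM, log2 0.62 ± 0.17), and no value of the stages overlapped in either gene. Of the desmosome genes in the list, Pkp1 rose 2.55-fold (43.5 to 66.7 CPM, then 122 to 165 CPM), Dsc3 by a log2 of 1.21 ± 0.09, Dsg3 by 1.19 ± 0.13, Dsp by 0.80 ± 0.14, Pkp3 by 0.56 ± 0.12, and Dsg2 by 0.49 ± 0.10. Cldn4, a tight junction protein, was the 1 gene lower (log2 -0.41 ± 0.14, edgeR adjusted p = 0.0414), a call lost in 9 of the 14 fits that left out 1 tooth.

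Genes that fix the epithelium to its basement membrane were called higher in 9 of 11 cases, with 0 lower (median log2 0.54). Itga6, the integrin of hemidesmosomes, rose 2.91-fold, from 90.8 to 109 CPM (median 100.2) to 250.3 to 339 CPM (median 284, edgeR adjusted p = 4.19e-11). Lamb3, a chain of the laminin it binds, rose 3.66-fold (12.2 to 21.9 CPM, then 49.8 to 69.1 CPM), and Lama3, another chain, rose by a log2 of 0.92 ± 0.11. Col17a1, a collagen of the same junction, was not called (63.9 to 109 CPM, then 76.9 to 140 CPM, log2 0.28 ± 0.15).

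Of 8 simple and basal keratins 6 were called higher and 0 lower (median log2 0.66). Krt17 rose 3.17-fold, from 127 to 248 CPM (median 169.6) to 519.5 to 628 CPM (median 552), Krt18 by a log2 of 1.14 ± 0.13, and Krt5 by 1.01 ± 0.16. Krt14, the basal keratin that pairs with Krt5, rose by 0.50 ± 0.11, and its stages overlapped slightly (142 to 226 CPM, then 213 to 303 CPM). Over all 24 keratin genes tested, 17 were higher and 0 lower (median log2 1.2502). Genes of stratified and cornified epithelium were higher in 8 of 17 cases and lower in 0 (median log2 0.56). These were at low levels, such as Krtdap (0.340 to 1.29 CPM, then 2.46 to 5.38 CPM, log2 2.73 ± 0.26) and Krt13 (0.138 to 1.84 CPM, then 2.16 to 6.61 CPM, log2 2.59 ± 0.36). Krt6a rose by 1.82 ± 0.18. The oral lining next to the tooth also expresses genes of this list, and its part in the values was not tested.

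Of 18 transcription factors of the dental epithelium, 11 were called higher and 1 lower (median log2 0.56), and 8 were called higher without the high mitochondrial libraries. Tbx1, a T-box factor, rose 2.54-fold, from 15.8 to 22.6 CPM (median 20.6) to 42.5 to 57.1 CPM (median 50.7, edgeR adjusted p = 1.09e-08), and Dlx3, a homeobox factor, by a log2 of 1.54 ± 0.25. Pitx1, a homeobox factor that acts in mandibular epithelium and mesenchyme, fell by 0.55 ± 0.14 on the log2 scale. Sox2, a factor of epithelial stem and progenitor cells, was at 30.9 to 50.5 CPM at E13 and at 24.1 to 44.4 CPM at E14 (log2 -0.24 ± 0.14, edgeR adjusted p = 0.25).

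**Figure D3:**
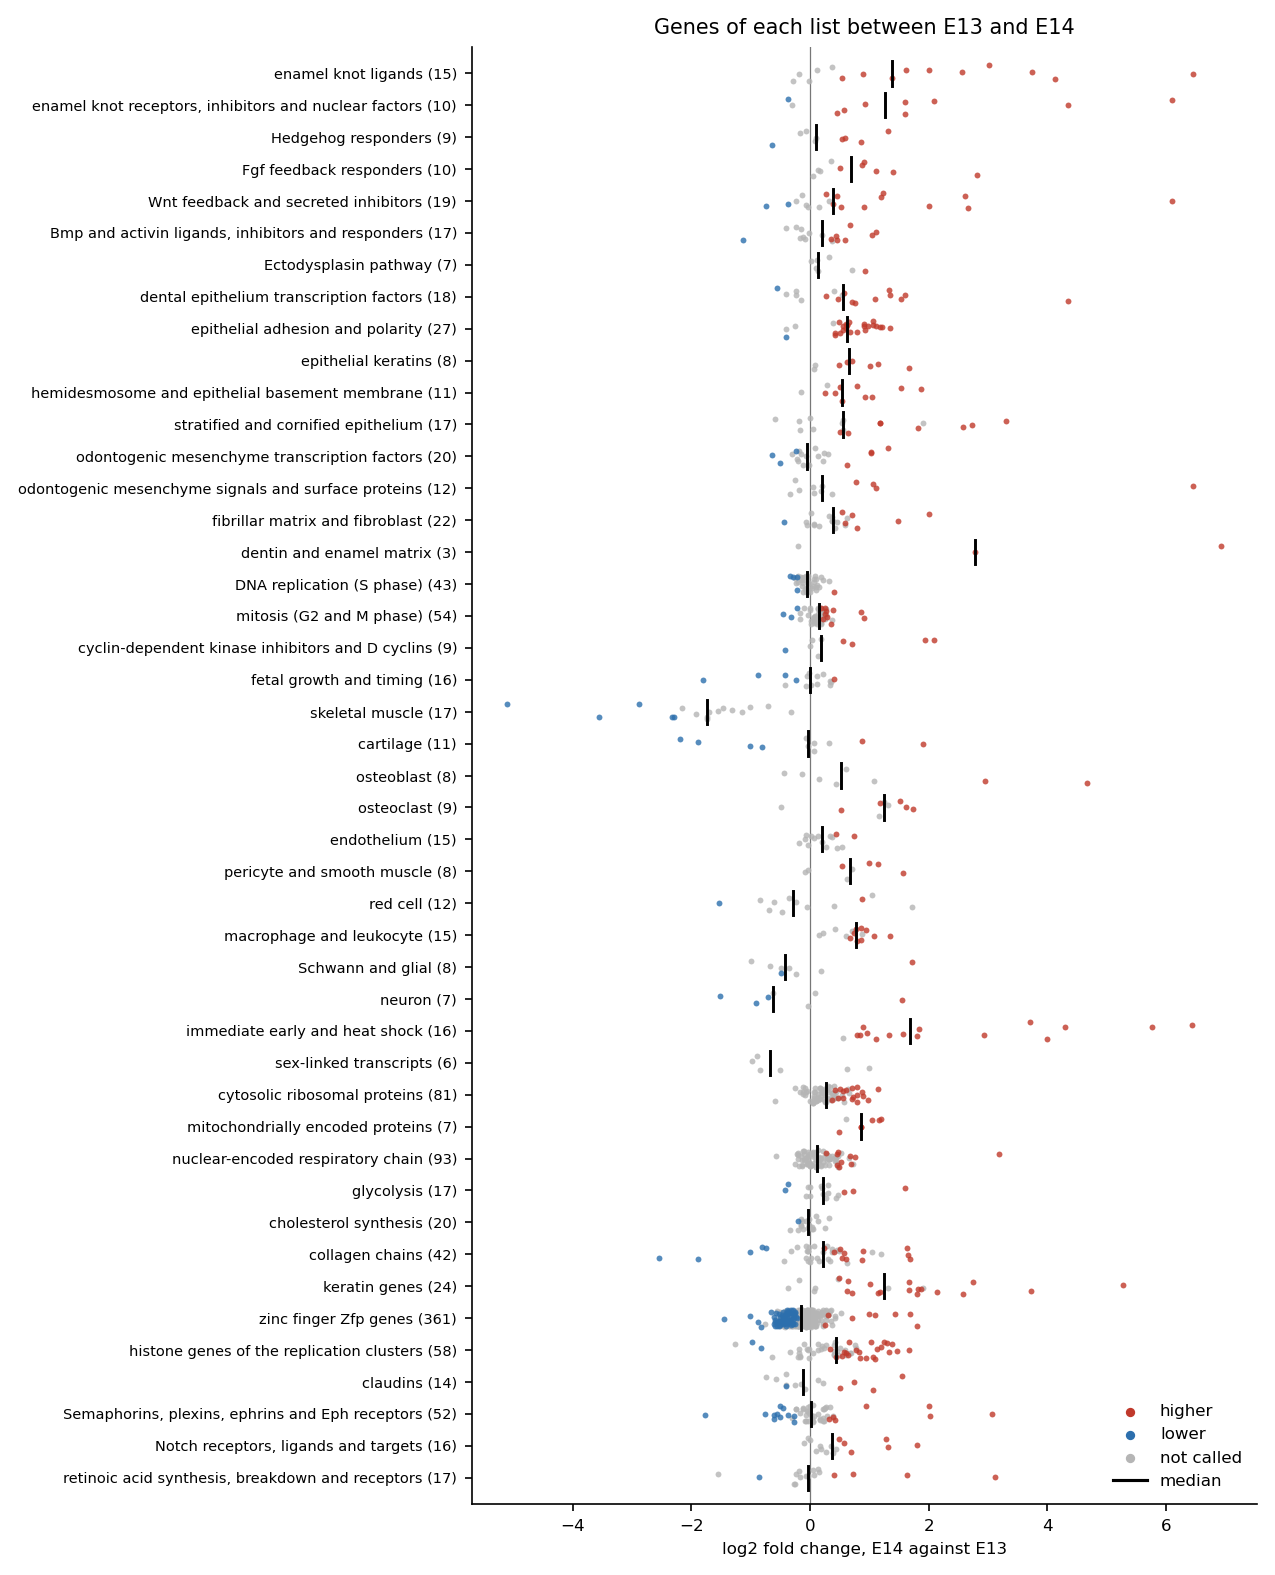
Each point is the log2 fold change of 1 gene (E14 against E13), in rows for the gene lists, with the number of genes tested in parentheses, the median of each list as a black bar, and calls in red (higher), blue (lower), or gray (not called). The points of the epithelial rows lie mostly to the right of 0, the row of mesenchyme transcription factors is centered on -0.04, and the muscle row is centered on -1.74.

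The transcription factors of the mesenchyme, in contrast, were centered on no change. Of 20 factors, 4 were called higher and 3 lower, with a median log2 fold change of -0.04. The shares called in each direction were above those of all genes (11.3% higher and 8.47% lower). The summed level of the 20 factors was 4413 to 4733 CPM at E13 and 4124 to 4975 CPM at E14. Msx1 was at 386 to 497 CPM at E13 (median 446) and at 317 to 444 CPM at E14 (median 391.9, log2 -0.18 ± 0.15 SE, edgeR adjusted p = 0.411), and Pax9, required with it for growth beyond the bud, was at 339 to 446 CPM and 346 to 421 CPM (log2 -0.02 ± 0.10, edgeR adjusted p = 0.91). Runx2, a factor of dental mesenchyme and of bone, was at 299.6 to 458 CPM and 336 to 491 CPM. The values of the stages overlapped in these 3 genes.

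Of the 7 that were called, 3 rose by at least 2-fold. Dlx2, a homeobox gene of both tissues, rose 2.50-fold, from 70.8 to 91.9 CPM (median 83.1) to 174 to 284 CPM (median 194, edgeR adjusted p = 0.000299). The highest value, 284 CPM, was in the left tooth of embryo 6. Prrx2 and Snai1 each rose by a log2 of 1.02, with SE of 0.15 and 0.25, and Tfap2b by 0.62 ± 0.13. Lhx8, a factor of the jaw mesenchyme on the oral side, fell 1.56-fold, from 179.5 to 245 CPM (median 201) to 123 to 155 CPM (median 130.4, edgeR adjusted p = 2.22e-06). Twist1 and Prrx1 were lower by 0.50 ± 0.16 and 0.24 ± 0.07 on the log2 scale, calls that were lost without the high mitochondrial libraries. Dlx1as, an antisense transcript of Dlx1, rose by a log2 of 2.40 ± 0.13 (9.65 to 21.1 CPM, then 58.8 to 81.7 CPM). As it overlaps Dlx1 and the strand setting is not stated, this value is uncertain.

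Among 12 signals and surface proteins of the mesenchyme 4 were higher and 0 lower (median log2 0.20). Besides Fgf3 and Inhba these were Nell2, a secreted protein, and Ngfr, a neurotrophin receptor, which rose by a log2 of 1.06 ± 0.15 and 0.78 ± 0.24. Fgf10, the mesenchymal ligand for the epithelium, was at 18.9 to 24.5 CPM at E13 and at 15.6 to 21.8 CPM at E14 (log2 -0.19 ± 0.10, edgeR adjusted p = 0.214). Postn, a matrix protein of condensed mesenchyme, was at 1228 to 1439 CPM and 1249 to 1514 CPM. With only the E13 and E14 libraries fitted, 7 of the 12 were called higher.

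Of 22 matrix and fibroblast genes 6 were called higher and 1 lower (median log2 0.38), and 15 were called higher when only the E13 and E14 libraries were fitted. Thy1, a surface protein of fibroblasts and pulp progenitors, rose from 4.84 to 13.1 CPM (median 10.96) to 30.4 to 62.5 CPM (median 38.7, log2 2.0 ± 0.25, edgeR adjusted p = 3.01e-06). Ogn, a small leucine-rich proteoglycan, rose by 1.49 ± 0.20 and Thbs2, a thrombospondin, by 0.80 ± 0.14. Col1a1, the main collagen of bone and dentin, was higher in every E14 tooth (2897 to 4451 CPM against 2030.2 to 2646 CPM) but missed the threshold (log2 0.62 ± 0.23, edgeR adjusted p = 0.055). Of 9 listed genes of dentin and enamel matrix 3 had counts enough to be tested, and 2 of these were called higher and 0 lower. Odam, made by ameloblasts and junctional epithelium, had the largest fold change of the genes named, from 0 to 0.338 CPM (median 0.0408) to 5.20 to 11.5 CPM (median 8.89), or 122-fold (log2 6.94 ± 0.42 SE). Dmp1 rose by 2.78 ± 0.38. Ambn, the other gene tested, was not called (log2 -0.21).

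**Figure D4:**
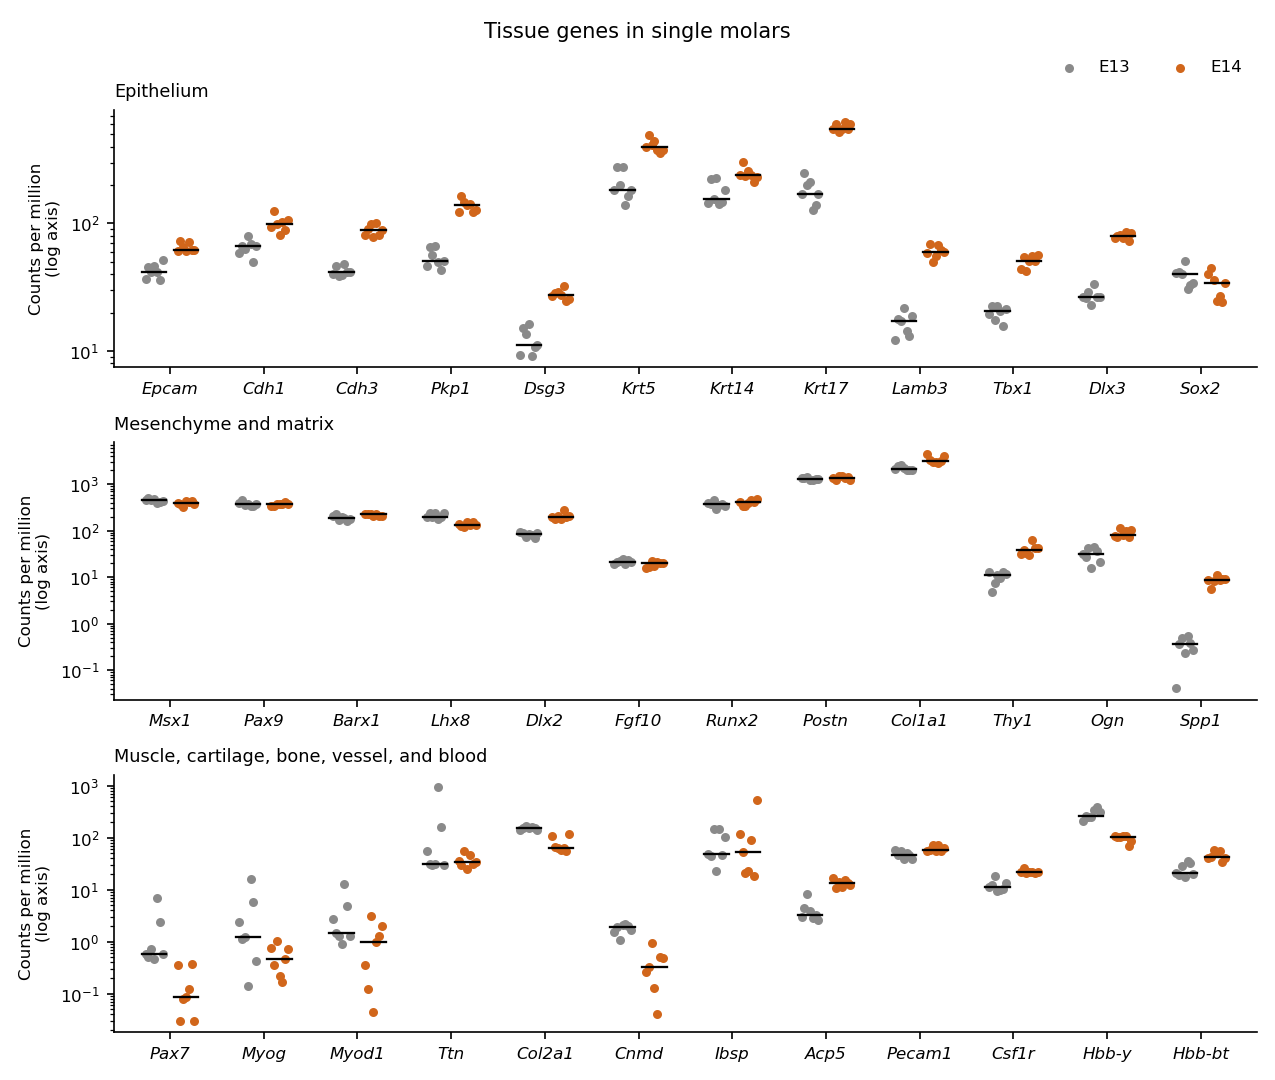
Each point is the level of a gene in 1 tooth, in CPM on a log axis, with E13 in gray, E14 in orange, the median of each stage as a bar, and values of 0 at 0.03 CPM. The stages separate in Epcam, Cdh1, Pkp1, Krt17, Lamb3, and Tbx1, mix in Msx1, Pax9, Fgf10, and Postn, and in the lower row a single E13 tooth, the left of embryo 7, is the highest in Pax7, Myog, Myod1, and Ttn.

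Genes of the cell cycle changed little. Of 43 genes of DNA replication, 1 was called higher and 4 lower (9.3%, near the 8.47% of all genes, median log2 -0.05). Of 54 genes of mitosis, 10 were called higher (18.5%, against 11.3% of all genes) and 3 lower (median log2 0.15). No gene called in either list reached 2-fold. These calls depended on few libraries. Without the high mitochondrial libraries the mitosis genes called higher were 3 and the replication genes called lower 0, and without the left tooth of E14 embryo 6 the mitosis genes called higher were 6. With only the E13 and E14 libraries fitted, the mitosis genes called higher were 22.

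Mki67, the nuclear protein of dividing cells, was at 987 to 1088 CPM at E13 (median 1035) and at 1143 to 1527 CPM at E14 (median 1304, log2 0.35 ± 0.10, edgeR adjusted p = 0.0131), a call lost without the high mitochondrial libraries (0.23). Top2a, which untangles chromosomes in mitosis, was at 540 to 612 CPM and 552 to 654 CPM (log2 0.12 ± 0.06, edgeR adjusted p = 0.205). Pcna and Mcm2, of the replication fork, had log2 fold changes of 0.22 ± 0.10 and -0.16 ± 0.14 and were not called. Ube2c, which drives exit from mitosis, rose by 0.91 ± 0.21, and Psrc1, a spindle protein, fell by 0.46 ± 0.07 on the log2 scale.

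Among 9 genes for cyclin-dependent kinase inhibitors and D cyclins, 4 were called higher and 1 lower (median log2 0.18). Beside Cdkn1a, the inhibitors Cdkn2b and Cdkn2c rose by a log2 of 1.95 ± 0.38 and 0.56 ± 0.14. Ccnd2, a cyclin of the G1 phase, rose by 0.71 ± 0.13, from 751 to 883 CPM (median 850) to 1270.5 to 1524 CPM (median 1356), with no overlap. Cdkn1c, an imprinted inhibitor, was lower by 0.42 ± 0.14 on the log2 scale, and the call was lost in 7 of the 14 fits that left out 1 tooth. Of 16 genes of fetal growth and timing, 1 was called higher and 4 lower, with a median of 0.00. The lower genes were Lin28b, an RNA-binding protein of early stages (5.34 to 8.41 CPM, then 2.68 to 5.22 CPM, log2 -0.87 ± 0.21), Trim71, which lost its call in 12 of the 14 fits that left out 1 tooth, and the RNA-binding proteins Igf2bp1 and Igf2bp3.

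Histone genes of the replication clusters were called higher in 22 of 58 cases and lower in 2 (median log2 0.45). Without the high mitochondrial libraries only 1 was called higher. Hist1h4n, for example, was at 10.8 to 40.3 CPM at E13, at 21.7 to 69.4 CPM in 4 E14 teeth, and at 101, 131, and 117 CPM in the E14 teeth of embryos 3, 6 (left), and 8. The same 3 libraries held the highest levels of mitochondrial genes, and the part of RNA quality or library composition in these calls was not tested.

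The muscle genes that were called were lower at E14, and the values rested in part on 1 tooth. Of 17 tested, 0 were called higher and 5 lower, all by at least 2-fold, with a median log2 fold change of -1.74. The summed level was 49.4 to 235 CPM in 6 E13 teeth, 1377 CPM in the left tooth of E13 embryo 7, and 41.0 to 87.8 CPM in the E14 teeth, so the stages overlapped. Its median was 53.5 CPM at E13 and 58.5 CPM at E14. Ttn, the giant protein of the sarcomere, was at 954 CPM in that tooth, at 29.3 to 158 CPM in the other E13 teeth, and at 25.2 to 55.9 CPM at E14. Without that tooth 3 of 17 were called lower, and Ttn was not (log2 -0.61). Pax7, a factor of muscle progenitors, fell from 0.466 to 6.88 CPM (median 0.584) to 0 to 0.374 CPM (median 0.0865, edgeR adjusted p = 0.00156), with no overlap. Myog, the factor of differentiating muscle, was at 0.140 to 16.2 CPM and 0.164 to 1.02 CPM (log2 -2.88 ± 0.72), and Myod1 was not called (log2 -1.70 ± 0.67, edgeR adjusted p = 0.0774). Pax3, which acts in muscle progenitors and in neural crest, fell from 0.875 to 18.8 CPM (median 7.23) to 0 to 0.354 CPM (median 0.246), or 34.4-fold (log2 -5.10 ± 0.56, edgeR adjusted p = 3.44e-07).

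Cartilage genes split. Of 11 tested, 4 were called lower and 2 higher (median log2 -0.04). Col2a1, the collagen of cartilage, fell 2.01-fold, from 140 to 168 CPM (median 155) to 56.0 to 118 CPM (median 64.2), and Cnmd, a cartilage protein that inhibits vessels, fell 4.58-fold, from 1.06 to 2.17 CPM to 0.0411 to 0.938 CPM. Both were without overlap. Col9a1 and Col9a2 fell by 1.89 ± 0.39 and 0.82 ± 0.18 on the log2 scale. In contrast, Col11a1 and Matn4, which other matrices contain as well, rose by a log2 of 0.87 ± 0.12 and 1.91 ± 0.24.

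Bone genes were uneven among teeth. Of 8 osteoblast genes 2 were called higher and 0 lower (median log2 0.53). Spp1, osteopontin of bone and of other tissues, rose 25.6-fold, from 0.0408 to 0.532 CPM (median 0.369) to 5.5 to 10.9 CPM (median 8.71), and Bmp8a rose 7.70-fold. The defining genes of osteoblasts were not called. Sp7 was at 42.0 to 101 CPM at E13 and at 31.0 to 113 CPM at E14. Ibsp, bone sialoprotein, was at 22.5 to 149 CPM at E13 and at 18.5 to 115 CPM in 6 E14 teeth, with 536 CPM in the left tooth of embryo 8 (log2 0.61 ± 0.58). Without that tooth its log2 fold change was -0.59.

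Of 9 osteoclast genes tested, 5 were called higher and 0 lower (median log2 1.249), and the sum went from 60.1 to 117 CPM at E13 to 148 to 193 CPM at E14. Acp5, the phosphatase that marks osteoclasts, rose 3.35-fold (2.60 to 8.16 CPM, then 10.9 to 16.3 CPM, edgeR adjusted p = 5.74e-05), and Mmp9, a protease, 2.86-fold (12.6 to 41.7 CPM, then 57.3 to 80.9 CPM). Ctsk, the protease of bone resorption, rose by a log2 of 1.18 ± 0.24, and Atp6v0d2 by 1.62 ± 0.27. None of these 4 overlapped between stages. Nfatc1, a transcription factor that osteoclasts share with other cells, was called higher as well (log2 0.52). The fusion proteins Dcstamp and Ocstamp, the receptor Oscar, and the calcitonin receptor Calcr were not called, with log2 fold changes of 1.249 ± 0.52, 1.16 ± 0.49, 1.31 ± 0.57, and -0.49 ± 0.84. Of 15 macrophage and leukocyte genes 9 were called higher and 0 lower (median log2 0.78). Csf1r, the receptor shared by macrophages and osteoclast precursors, rose by 0.86 ± 0.17 (9.33 to 18.5 CPM, then 20.8 to 26.4 CPM), and Tyrobp by 1.35 ± 0.25. Adgre1, which defines mature macrophages, was not called (1.97 to 5.21 CPM, then 2.70 to 4.82 CPM, log2 0.21 ± 0.19).

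Of 15 endothelial genes 2 were called higher (13.3%, near the 11.3% of all genes) and 0 lower (median log2 0.21), and none without the high mitochondrial libraries. Pecam1 and Cdh5, surface proteins of endothelial cells, had log2 fold changes of 0.37 ± 0.15 and 0.45 ± 0.22 and were not called. Of 8 pericyte and smooth muscle genes 4 were higher and 0 lower (median log2 0.67), among them Kcnj8 (1.33 to 4.48 CPM, then 8.82 to 11.4 CPM, log2 1.57 ± 0.22) and Tagln (1.15 ± 0.14).

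Of 12 red cell genes tested, 1 was called higher and 1 lower (8.33% each, against 11.3% and 8.47% of all genes, median log2 -0.29). The summed level of the list was 251 to 463 CPM at E13 and 125 to 194 CPM at E14, with no overlap. Most of this sum came from Hbb-y in every tooth, so its fall does not describe the other members. Hbb-y, the embryonic beta globin of primitive red cells, fell 2.91-fold, from 205 to 390 CPM (median 257) to 69.9 to 109 CPM (median 102), with no overlap (log2 -1.54 ± 0.15 SE, edgeR adjusted p = 6.16e-08). Hbb-bt, an adult beta globin, rose 1.84-fold, from 17.5 to 36.1 CPM (median 20.9) to 33.2 to 58.6 CPM (median 43.0, edgeR adjusted p = 0.00104). The other globins tested were not called, with log2 fold changes of -0.69 ± 0.25 in Hba-x, -0.36 ± 0.59 in Hba-a1, -0.47 ± 0.53 in Hba-a2, and 1.73 ± 0.65 in Hbb-bs. Beta globin genes are close in sequence, and how reads shared between them were counted is not stated.

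Nerve genes were few and low. Of 7 neuronal genes 3 were called lower and 1 higher (median log2 -0.62), with Nefm and Nefl, neurofilaments that overlap each other in the annotation, lower by 1.52 ± 0.34 and 0.91 ± 0.28 on the log2 scale, and Gap43, of growing axons, lower by 0.70 ± 0.16. Tubb3, a tubulin of neurons, rose by 1.56 ± 0.19. Of 8 Schwann and glial genes 1 was called higher and 1 lower (12.5% each, against 11.3% and 8.47% of all genes). Sox10, which defines Schwann cells, was at 2.34 to 5.98 CPM and 1.60 to 3.93 CPM and was not called, and S100b rose by 1.71 ± 0.22.

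**Figure D5:**
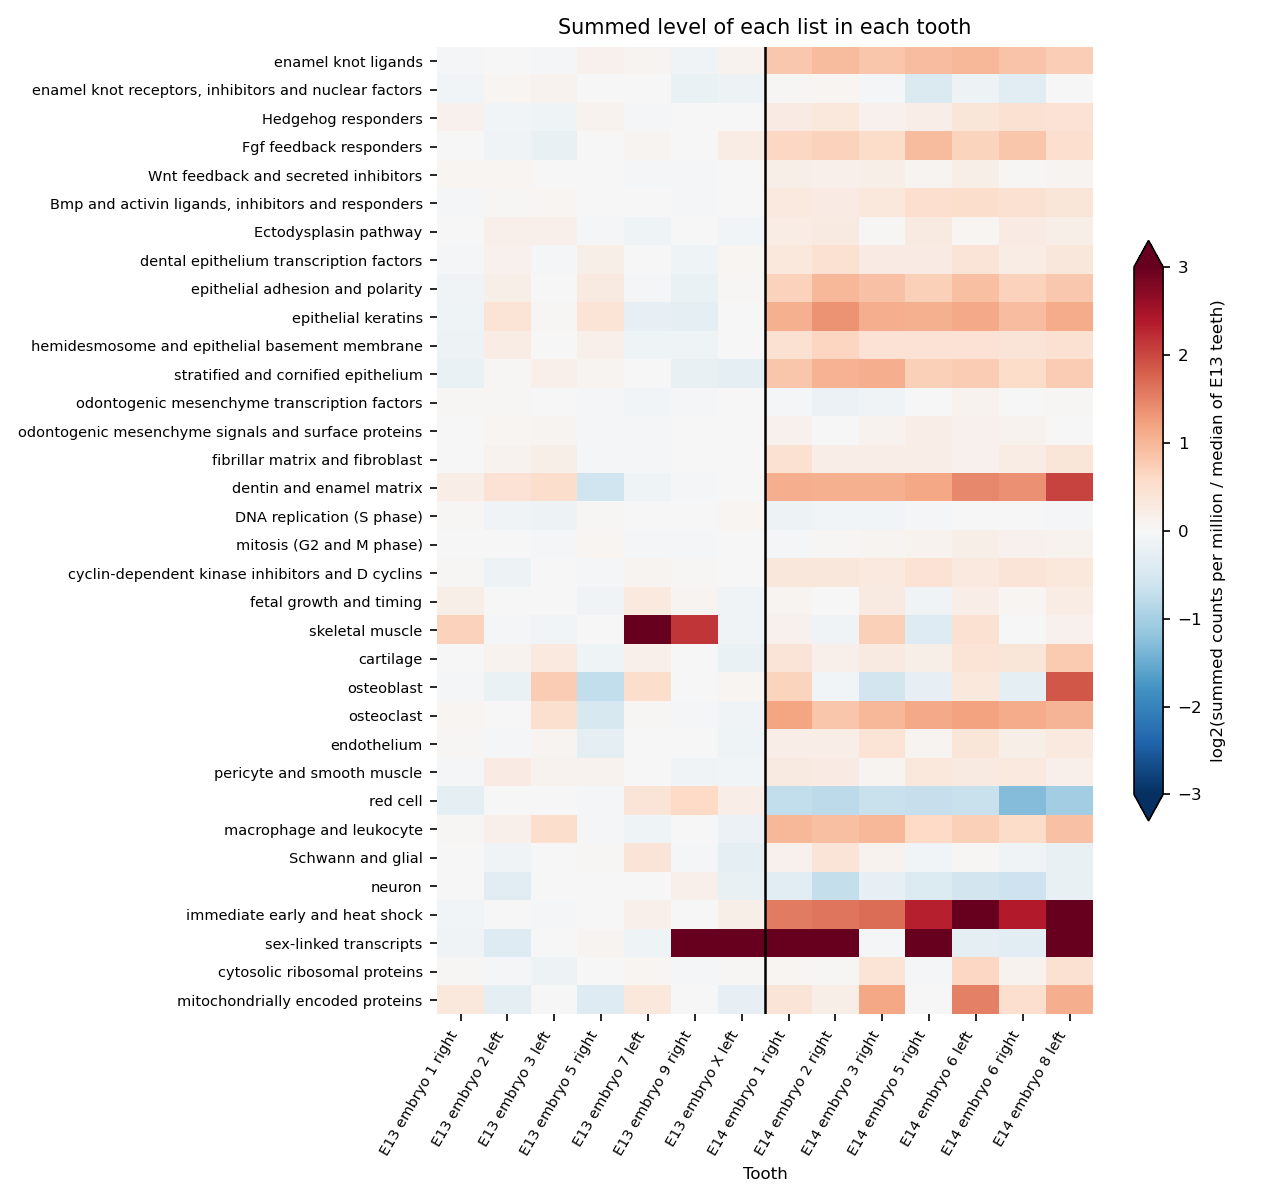
The color gives, for each list (rows) and tooth (columns), the log2 ratio of the summed level of the list to its median over the E13 teeth, in red above and blue below with the scale ending at 3 either way, and the line parts E13 from E14. The ligand, Fgf feedback, adhesion, keratin, and osteoclast rows change at the line in all teeth, the muscle row is dark in 2 E13 teeth, and the mitochondrial row is darkest in E14 embryos 3, 6 (left), and 8.

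Several of the largest falls were in transcription factors. Tbx18, a T-box factor (chromosome 9, 87702800 to 87731260, reverse strand), was at 9.83 to 56.8 CPM at E13 (median 33.2) and at 0 to 2.01 CPM at E14 (median 1.85), 24.2-fold lower (log2 -4.60 ± 0.48 SE, edgeR adjusted p = 1.46e-07). Tbx15, its relative, fell 6.10-fold, from 59.4 to 93.3 CPM (median 86.3) to 9.61 to 30.7 CPM (median 10.9). The highest E14 value of Tbx15, 30.7 CPM, was in the tooth of embryo 1, and the next was 12.2 CPM. Nr5a2, a nuclear receptor, fell 6.28-fold (11.5 to 34.6 CPM, then 2.03 to 6.96 CPM). Hand2, a factor of the distal jaw, was at 10.3 CPM in the left tooth of E13 embryo 7 and at 0.184 to 2.89 CPM in the other E13 teeth, against 0 to 0.575 CPM at E14, and its call was lost without the E13 teeth of embryos 7 and X. Pou3f2, a POU domain factor, fell 9.26-fold with no overlap.

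Unc5c, a receptor of the guidance protein netrin, had the smallest p among the falls. It went from 75.6 to 145 CPM (median 116) to 27.2 to 45.8 CPM (median 35.8), or 3.30-fold lower (log2 -1.72 ± 0.12 SE, edgeR adjusted p = 1.45e-10). Rxfp2, a relaxin family receptor, fell 11.8-fold, Aqp4, a water channel, 7.19-fold, and Kera, a keratan sulfate proteoglycan, 5.66-fold, none with overlapping stages. Rmst, a long noncoding RNA, fell 4.78-fold (8.23 to 24.6 CPM, then 3.17 to 3.77 CPM). Tbx3os1 fell by 1.56 ± 0.13 on the log2 scale, but overlaps Tbx3, so its value is uncertain.

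Among the largest rises were several genes with no place in the lists. Gcnt4, an enzyme that branches sugar chains (chromosome 13, 96924689 to 96950906, forward strand), had the smallest p of all genes tested (edgeR adjusted p = 4.86e-13) and rose 29.3-fold, from 0.184 to 1.02 CPM (median 0.467) to 12.6 to 20.7 CPM (median 15.5). Gldn, a matrix protein known from nodes of nerves, rose 83.3-fold (0 to 0.233 CPM, then 5.71 to 9.49 CPM). Oc90, a protein of the crystals of the inner ear, had 3 counts in all E13 teeth and 344 in all E14 teeth, a ratio of 105 with an exact 95% interval of 35.5 to 510.3 for counting error. Nptx2 and Syn1, both proteins of synapses, rose 26.5-fold and 25.8-fold. Syn1 overlaps Araf and Timp1 in the annotation, and its value is therefore uncertain. Ptprn, a protein of secretory granules, rose 29.4-fold, Ankrd63 60.5-fold, and Galnt15, a glycosyltransferase, 35.5-fold. The E14 teeth were above the E13 teeth in all of these genes.

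Other changes of small p were moderate in size. Sema7a, a membrane semaphorin, rose 8.42-fold (3.45 to 6.11 CPM, then 30.6 to 48.0 CPM, edgeR adjusted p = 1.51e-12), Me3, a mitochondrial enzyme of malate, 8.47-fold, and Prdm1, a transcriptional repressor, 3.79-fold. Over 52 genes of semaphorins, plexins, ephrins, and Eph receptors 7 were called higher and 11 lower (median log2 0.01). Epha2 rose 4.06-fold (10.3 to 14.2 CPM, then 41.7 to 57.7 CPM) and Sema3b 4.01-fold, while Efnb3 fell 1.69-fold (52.7 to 68.5 CPM, then 30.8 to 42.9 CPM).

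The Zfp, ribosomal, mitochondrial, and respiratory chain genes were counted as families. Of 361 zinc finger genes named Zfp, 69 were called lower (19.1%, against 8.47% of all genes) and 8 higher, with a median log2 fold change of -0.16. Most falls were small, such as Zfp57, a factor that guards imprints (62.7 to 79.8 CPM, then 41.9 to 54.0 CPM, log2 -0.50 ± 0.08), and 32 were called lower without the high mitochondrial libraries. Of 81 ribosomal protein genes 17 were called higher and 0 lower (median log2 0.27), but none without these libraries. Of 13 mitochondrially encoded genes listed, 7 had counts enough to be tested, and 3 had no count in the 14 teeth, for which the cause was not tested. Of the 7, 6 were called higher, and again none without the high mitochondrial libraries. Among the 7, mt-Nd1 was at 1072 to 1989 CPM at E13 and 1637 to 6390.3 CPM at E14. Of 93 nuclear genes of the respiratory chain 10 were higher (10.8%, near the 11.3% of all genes), and 1 without the high mitochondrial libraries. That gene group includes Ndufa4l2, an oxygen-responsive subunit relative, which rose 9.15-fold (0.897 to 2.13 CPM, then 9.60 to 19.6 CPM, edgeR adjusted p = 1.61e-08).

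Energy and lipid genes changed in single members. Of 17 genes of glycolysis 3 were called higher and 2 lower (median log2 0.21). The shares were 17.6% and 11.8%, against 11.3% and 8.47% of all genes. Here 2 forms of phosphofructokinase moved in opposite directions. Pfkp was 3.04-fold higher (8.60 to 10.46 CPM, then 25.1 to 34.4 CPM, edgeR adjusted p = 1.51e-12). Pfkm was lower by 0.37 ± 0.11 on the log2 scale, a call also lost without E13 embryo 2. Of 20 genes of cholesterol synthesis 0 were called higher and 1 lower (5.0%, against 8.47% of all genes, median log2 -0.03). Of 42 collagen chains 11 were higher and 5 lower (median log2 0.22), led by Col5a3 (1.69 ± 0.24) among the higher and Col19a1 (-2.55 ± 0.42) among the lower. Of 14 claudins 4 were called higher and 1 lower (median log2 -0.12), with Cldn1, of the epithelial barrier, higher by a log2 of 1.06 ± 0.12. Of 39 Hox genes, which are silent in the first arch, 1 had counts enough to be tested and it was not called.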

How the data were processed

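Single first molar tooth germs of wild type mice were measured with RNAseq of total RNA (Ovation Mouse Universal RNAseq libraries), and the counts were deposited as a table of whole reads per gene and tooth. According to the study's methods, the authors checked reads with FastQC, filtered them with AfterQC and Trimmomatic, aligned them to GRCm38 with STAR, and counted reads per gene with HTSeq. The strand setting of the counting is not given in the sources used here. Pseudoaligned values without E14 teeth were not used.

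Counts were tested as deposited with the edgeR quasi-likelihood test (edgeR 4.0.16, R 4.3.3), with TMM scaling, in 1 fit of 21 libraries (7 each of E13, E14, and E16). Genes were filtered with filterByExpr by stage, the contrast was E14 minus E13, and p-values were adjusted by Benjamini and Hochberg over 19101 genes. CPM values use the TMM library sizes. The ± values are SE of the log2 fold change in the fit of 21 libraries. Each was taken as the absolute log2 fold change over the square root of the F statistic. Thus it rests on the spread fitted over all stages, not on the E13 and E14 teeth alone. The teeth of E14 embryo 6 share an embryo and entered as 2 samples. Depth was 19187478 to 25711785 counts per tooth, and no pair of teeth of a stage agreed within sampling noise (smallest chi-square per degree of freedom 7.21). Of 52636 genes in the table, 52489 were matched to GENCODE M21 for position, type, and overlap, and 147 were not. The scripts were tested on simulated counts.

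The 46 gene lists, the tests, and the rule for naming genes were chosen with earlier results of these data known. By that rule, the text names the 15 largest folds each way among called genes with a mean of at least 1 CPM over the 14 teeth, the 10 smallest p each way, up to 4 called members of each list each way, and defining genes of each list; any other gene is named to complete a list. Alternatives were DESeq2 (1.42.0) and its size factors, 2 other filters on low counts, the E13 and E14 libraries alone, side as a factor, the teeth of embryo 6 summed, leaving out each tooth, and, chosen after seeing the data, leaving out the 3 high mitochondrial libraries or the E13 teeth of embryos 7 and X. Promoter sequences are from RefSeq (GRCm38.p6). Results of 5 genes are not reported here.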

Additional observations from a re-analysis of the deposited data

Results flagged for a closer look

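Within each stage of 7 teeth, a list sum or a gene was marked where the highest or the lowest tooth stood apart from the nearest other tooth by more of the range than the 95% critical value of Dixon's test. Of 606 such groups 45 were marked, and chance marks about 1 in 20. Each value below is in CPM and is the tooth that stood apart.

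The left tooth of E13 embryo 7 held a skeletal muscle sum of 1376.6 and a Schwann and glial sum of 74.963. It was also highest in Ttn (953.6), Myog (16.2), Myod1 (12.978), Hand2 (10.3), Cdkn1a (8.97), Pax7 (6.88), Vgll2 (6.80), and Stra6 (6.59). The left tooth of E13 embryo 3 was highest in the macrophage and leukocyte sum (95.497), Mmp9 (41.7), Acp5 (8.16), Adgre1 (5.21), and Odam (0.338). The left tooth of E13 embryo X was highest in Dlx1as (21.1), Fgf4 (1.97), Fgf20 (1.33), and Fgf3 (1.12) and lowest in Lfng (8.07) and Cldn1 (7.49). Of the other E13 teeth, that of embryo 2 was highest in Pfkm (56.6) and Krtdap (1.29) and lowest in Tbx15 (59.4), that of embryo 5 highest in Bmp4 (62.6), and that of embryo 1 highest in Dkk4 (0.0815).

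The left tooth of E14 embryo 8 was highest in the osteoblast sum (939.85), the cartilage sum (915.34), the dentin and enamel matrix sum (29.987), Ibsp (535.8), Fosb (394.7), Fos (190.9), and Trim71 (1.22) and lowest in Zfp57 (41.9). The tooth of E14 embryo 1 was highest in Tbx15 (30.7), Nr5a2 (6.96), Rxfp2 (2.34), and Aqp4 (1.32), all of them genes that were lower at E14. The left tooth of E14 embryo 6 was highest in Dlx2 (284.3), Thy1 (62.5), and Kcnj8 (11.4). The tooth of E14 embryo 2 was highest in the sum of hemidesmosome and basement membrane genes (2670.6) and Csf1r (26.4) and lowest in Ctsk (20.2), and that of embryo 5 was lowest in Krtdap (2.46). The causes were not tested.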

How the results depend on the processing

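The count of genes higher at E14 (2150) fell to 1290 without the 3 E14 teeth of highest mitochondrial share, an alternative chosen after seeing the data, and otherwise lay between 1687 and 3128. The count of lower genes (1617) was 796 without these teeth and 2513 with only the E13 and E14 libraries, and that of genes lower by at least 2-fold (254) was 401 among genes with any count. Leaving out 1 tooth at a time gave 1821 to 2127 higher and 1256 to 1660 lower genes. Replication genes called lower (4) were 2 among genes with any count, 8 with only the E13 and E14 libraries, 0 without the 3 teeth, 1 without the E13 teeth of embryos 7 and X (also chosen after seeing the data), and 2 to 4 with 1 tooth left out. Mitosis genes called higher (10) were 6, 22, 3, and 4 under the same alternatives and 6 to 12 with 1 tooth left out. Muscle genes called lower (5) were 3 without embryos 7 and X and 3 to 7 with 1 tooth left out, with 3 where embryo 7 alone was left out. The causes were not tested, other than that fewer samples or other genes entered these fits.

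Ibsp, not called, turned from a log2 fold change of 0.61 to -0.62 without the 3 teeth, and spanned -0.59 (without the left tooth of E14 embryo 8) to 0.84 with 1 tooth left out. Pax9, also not called, spanned -0.051 to 0.023 with 1 tooth left out, the latter without E13 embryo 2. Of 234 called genes among those named by the rule or defining a list, 169 kept their call in every alternative run. The other 65 lost it in at least 1, and 0 turned in direction. Of 67 list counts, 40 moved by over 1.5 times in at least 1 alternative. No paired analysis was possible because embryo numbers only name embryos within a stage, and no label ties an E13 tooth to an E14 tooth.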
